A study of Mus musculus with 4 samples.

Results

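The Gimap genes encode GTPases of the immunity-associated protein family, which share a GTP-binding AIG1 domain. The 8 members described here are Gimap1, Gimap3, Gimap4, Gimap5, Gimap6, Gimap7, Gimap8 and Gimap9, found by their gene symbol among the 22558 genes of the deposited count table with no threshold on a measured value, although earlier results of these data were known when the family was picked. RNA was compared between activated lung group 2 innate lymphoid cells (ILC2s, lymphocytes without antigen receptors that make type 2 cytokines) of 2 WT libraries and 2 ICAM-1 KO-labelled libraries. WT mice were C57BL/6, and the knockout mice carried the Icam1 tm1Jcgr allele and are labelled as being of the same background. All mice were 6 weeks old, had received 3 intranasal doses of 0.5 µg recombinant IL-33, and had their ILC2s sorted on day 4 as lineage-negative CD45+ ST2+ CD127+ cells, with each library made from a pool of 4 mice. A pool does not show the spread between animals, so SDs here describe the spread between pools, of which each group had 2. The p-values likewise rest on pools and not on single animals.

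The Gimap proteins act in lymphocyte survival and quiescence, and their genes sit side by side in a small cluster. Mice or rats without working Gimap5 lose peripheral T cells, and mature T and B cells need Gimap1. The proteins differ in where they reside, since Gimap1, Gimap3 and Gimap5 carry a membrane anchor at their C-terminus while Gimap4, Gimap6 and Gimap7 lack one. Although known best from T and B cells, several members are also expressed in vascular endothelium.

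The depth was 24796148 to 28782471 estimated counts per library. Icam1, the targeted gene, was not lower in the ICAM-1 KO-labelled libraries, with 97.6 and 110 normalized counts against 85.2 and 83.3 in WT (log2 fold change 0.33 ± 0.11 SE, adjusted p = 0.0745 by the quasi-likelihood test of edgeR). Each direction below therefore rests on the labels. All 12 listed ILC2 marker genes were detected and tested. Their summed level was 7934 and 8376 in WT and 6349 and 6542 in the ICAM-1 KO-labelled libraries, on the scale of the normalized counts, which are estimated counts plus 1, scaled by an upper quartile factor for each library. Markers of cells that the sort should remove were present too, and many of them, though not all, were higher in the ICAM-1 KO-labelled libraries.

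Of the 8 Gimap genes, 4 were higher in the ICAM-1 KO-labelled libraries than in WT, namely Gimap4, Gimap7, Gimap3 and Gimap6, and none was lower (quasi-likelihood test of edgeR, Benjamini-Hochberg adjusted p under 0.05). Among all 11711 genes tested, 8.8% were called higher and 4.97% lower. Gimap4 changed most, at 2.51-fold, and was the only member both called and past 2-fold, which held for 4.94% of the genes tested in the same direction. For Gimap5, the 95% interval of the log2 fold change ran from -0.26 to 0.27. The members had a median log2 fold change of 0.54, against 0.01 over all genes tested. Among the 5093 tested genes at least as abundant as the lowest member, 7.8% were higher and the median was -0.05. In bulk libraries, more cells that express Gimap genes and more Gimap RNA per cell cannot be told apart. For no member was an unadjusted p under 0.05 found in the lower direction. DESeq2 called 5 members higher and 0 lower, beside 1261 higher and 930 lower among all 11711 genes tested. T cell and endothelial markers were higher in the same libraries, with 9 of 14 and 19 of 19 called higher and summed levels of 828 and 929 against 1392 and 1645 and of 364 and 340 against 941 and 954. With no filter for low counts, 6 T cell and 14 endothelial markers were called higher. The part of these markers in the Gimap result, and in those of the lymphocyte and BCL2 family genes given later, was not tested.

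The cluster lies on chromosome 6 of mm10 from 48647234 to 48770851, a span of 124 kb. In order of position it runs Gimap8, Gimap9, Gimap4, Gimap6, Gimap7, Gimap1, Gimap5 and Gimap3, of which Gimap6 and Gimap3 are read from the minus strand and the other 6 from the plus strand. Of the called members, Gimap4, Gimap6 and Gimap7 are neighbours of one another, and Gimap3 stands apart at the end of the cluster behind Gimap1 and Gimap5, which were not called. Gimap4 (48684549 to 48692060) lies between Gimap9 and Gimap6, and Gimap3 (48764464 to 48770851) lies beside Gimap5 (48746197 to 48754210). Gimap8 spans 48647234 to 48660875, Gimap9 48676129 to 48679114, Gimap6 48701582 to 48708225, Gimap7 48718621 to 48724636 and Gimap1 48739054 to 48743795.

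The promoters of 3 members are shown because they stand for the member that rose most, the most abundant one, and one that was not called. Each printed sequence is the 250 bases before the RefSeq start in GRCm38.p6, read 5′ to 3′ on the strand of the gene, and capitals mark exact matches on either strand to a fixed set of motif letters. Gimap4 is at chr6:48684328-48684577, plus strand, Gimap3 at chr6:48770852-48771101, minus strand, and Gimap5 at chr6:48745947-48746196, plus strand.
Gimap4: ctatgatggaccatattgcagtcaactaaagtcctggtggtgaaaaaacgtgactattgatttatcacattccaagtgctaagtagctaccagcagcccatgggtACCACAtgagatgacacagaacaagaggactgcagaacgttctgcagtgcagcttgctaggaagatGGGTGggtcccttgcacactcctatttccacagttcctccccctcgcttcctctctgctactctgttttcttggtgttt
Gimap3: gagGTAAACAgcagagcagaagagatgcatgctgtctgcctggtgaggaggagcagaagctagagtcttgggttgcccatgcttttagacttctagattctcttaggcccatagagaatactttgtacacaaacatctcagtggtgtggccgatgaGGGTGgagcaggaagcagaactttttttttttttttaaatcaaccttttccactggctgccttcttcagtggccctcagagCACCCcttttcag
Gimap5: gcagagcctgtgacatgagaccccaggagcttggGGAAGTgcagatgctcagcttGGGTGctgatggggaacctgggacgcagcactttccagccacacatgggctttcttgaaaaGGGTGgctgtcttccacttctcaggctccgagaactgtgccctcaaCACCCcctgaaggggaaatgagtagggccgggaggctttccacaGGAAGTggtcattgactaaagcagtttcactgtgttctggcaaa

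Within these windows, the KLF box (CACCC) occurred in 5 of the 8 members, Gimap8, Gimap9, Gimap4, Gimap5 and Gimap3, and in 52% of all 32851 promoter windows of the same length. Gimap8 had 2 windows, both with this box, and the other members had 1 each. A member counted if any of its windows matched, whereas the shares of all promoters are per window. A RUNX site (TGTGGT) was found in Gimap4, Gimap7 and Gimap1, against 14% of all windows. An ETS site (GGAAGT) was found in Gimap6 and Gimap5, against 19.7%, and occurred at 2 positions in Gimap5. The FOXO site (GTAAACA) was found in Gimap3 alone, 247 to 241 bases before the start, against 3.17%, and the TATA box (TATAAA) in Gimap6 alone, against 12.4%. The GATA site (AGATAA) occurred in none of the members and in 9.99% of all windows. In these windows no match overlapped another. None of the motifs separated the 4 called members from the 4 others, and a match of letters does not show that a factor binds.

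**Figure D1:**
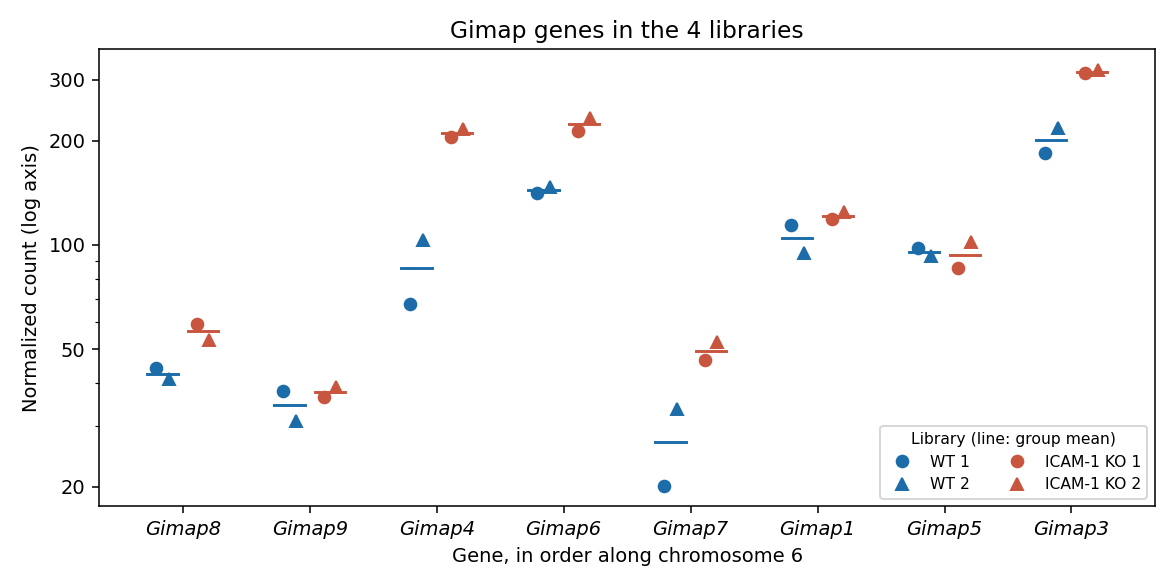
Normalized count (log axis) of each Gimap gene in WT 1 (blue circle), WT 2 (blue triangle), ICAM-1 KO 1 (red circle) and ICAM-1 KO 2 (red triangle), as labelled, with a line at each group mean. For Gimap4, Gimap6, Gimap7 and Gimap3, and also for Gimap8 and Gimap1, which were not called, the red points lie above the blue ones. For Gimap5 and Gimap9 they overlap.

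Gimap4, a member without a membrane anchor that modulates lymphocyte death, had 67.6 and 104 normalized counts in WT and 206 and 216 in the ICAM-1 KO-labelled libraries. The WT libraries were 1.53-fold apart, and yet both lay far below the ICAM-1 KO-labelled libraries, which differed by 1.05-fold. The mean was 85.6 ± 25.5 (SD, n = 2) in WT and 211 ± 7.04 (SD, n = 2) in the ICAM-1 KO-labelled libraries, with a log2 difference of 1.33 (SE 0.17, edgeR adjusted p = 0.00239). Its estimated counts were 2046, 3273, 5926 and 6769 in the same order. No stretch of 50 bases in its transcripts was found in a transcript of another gene, so its reads had no annotated copy to be shared with. Of the abundant T cell markers that rose, Trac (58.8 and 78.7 in WT 1 and WT 2) and Foxp3 (42.4 and 53.9) were likewise higher in WT 2, and Trbc1 (138 and 128) was lower there. Of the other T cell markers called higher, Cd3d (19.1 and 37.7), Cd28, Cd6, Cd4 and Cd5 were higher in WT 2, and Lat (59 and 51.7) was lower. Their part in the spread of Gimap4 was not tested.

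Gimap7, a soluble member that hydrolyses GTP as a dimer, showed a similar spread between the WT libraries. Its libraries had 20.2 and 33.6 normalized counts in WT and 46.5 and 52.5 in the ICAM-1 KO-labelled libraries. The groups did not overlap, and Gimap7 was 1.67-fold higher in WT 2 than in WT 1. Its mean rose from 26.9 ± 9.49 (SD, n = 2) to 49.5 ± 4.23 (SD, n = 2), a log2 fold change of 0.91 (SE 0.22, edgeR adjusted p = 0.028). Without WT 1 the log2 difference was 0.59 (edgeR adjusted p = 0.0843), and with no filter for low counts it was 0.86 (edgeR adjusted p = 0.118), so this was the least firm of the 4 calls. Gm28053, a transcript that spans Gimap7, Gimap1 and part of Gimap5 on the same strand, was counted at 2.62 to 2.78 normalized counts in every library. Adding its counts to those of Gimap7 gave a log2 difference of 0.84 (edgeR adjusted p = 0.0283).

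Gimap6, which binds the autophagy protein Gabarapl2, had 142 and 147 normalized counts in WT and 214 and 233 in the ICAM-1 KO-labelled libraries. The libraries of each group lay within 1.09-fold of each other and the groups were well apart, with means of 144 ± 3.84 and 223 ± 13.2 (SD, n = 2 each). The log2 fold change was 0.66 (SE 0.093, edgeR adjusted p = 0.00346), and it ranged from 0.58 to 0.73 over the alternatives tried, past the threshold in all 13. Gabarapl2 itself had 174 and 172 normalized counts in WT and 151 and 180 in the ICAM-1 KO-labelled libraries, and the groups overlapped.

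Gimap3, a membrane-anchored member that is the closest relative of Gimap5, had 185 and 218 normalized counts in WT and 314 and 320 in the ICAM-1 KO-labelled libraries. Both ICAM-1 KO-labelled libraries exceeded both WT libraries, and the mean rose from 201 ± 23.3 (SD, n = 2) to 317 ± 3.82 (SD, n = 2). The log2 fold change was 0.68 (SE 0.10, edgeR adjusted p = 0.00394). It passed the threshold in all 13 alternatives tried, at values from 0.5 to 0.81, the lowest of them with Gimap3 and Gimap5 counted as 1 gene.

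Gimap5, whose loss depletes T cells and haematopoietic progenitors, had 97.8 and 92.8 normalized counts in WT and 85.7 and 102 in the ICAM-1 KO-labelled libraries. Both WT values lay between those of the other libraries, and the means were 95.3 ± 3.53 and 93.8 ± 11.4 (SD, n = 2 each). The log2 fold change was 0.01 with a 95% interval from -0.26 to 0.27 (edgeR adjusted p = 0.982), and its sign was negative in 6 of 12 alternatives. Gimap3 and Gimap5 shared 190 stretches of 50 bases, which were part of the 8.15% of the stretches of Gimap3 and of the 6.84% of those of Gimap5 that also occurred in other transcripts. The ratio of Gimap3 to Gimap5 counts was 1.89 and 2.34 in WT and 3.67 and 3.14 in the ICAM-1 KO-labelled libraries, which did not overlap.

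Gimap1, the other anchored member that mature lymphocytes need, had 114 and 94.6 normalized counts in WT and 119 and 124 in the ICAM-1 KO-labelled libraries. The groups did not overlap, but the gap was small beside the distance between the WT libraries, and the means were 105 ± 14.0 and 122 ± 3.62 (SD, n = 2 each). Its log2 fold change was 0.25 with a 95% interval from -0.01 to 0.51 (edgeR adjusted p = 0.186). Gimap1os, an antisense transcript, covers 2391 bases of Gimap1, and 35.5% of the stretches of 50 bases in Gimap1 transcripts recurred elsewhere, most of them in Gimap1os on the other strand. The sources do not state whether strand was used in counting, so the count of Gimap1 is uncertain. Gimap1os had 4.14 and 7.64 normalized counts in WT and 7.48 and 10.4 in the ICAM-1 KO-labelled libraries, with a log2 difference of 0.63 that did not pass the test (adjusted p = 0.27).

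Gimap8, the large member with more than a single GTPase domain, had 44 and 40.9 normalized counts in WT and 59.2 and 53.2 in the ICAM-1 KO-labelled libraries. Although the groups did not overlap, with means of 42.5 ± 2.23 and 56.2 ± 4.25 (SD, n = 2 each), the log2 fold change of 0.43 (SE 0.13) narrowly missed the threshold, with an adjusted p of 0.0527 by edgeR and 0.0363 by DESeq2. Gimap9 had 37.9 and 31 normalized counts in WT and 36.5 and 38.9 in the ICAM-1 KO-labelled libraries, so the groups overlapped, with means of 34.4 ± 4.88 and 37.7 ± 1.73 (SD, n = 2 each). Its log2 fold change was 0.16 with a 95% interval from -0.19 to 0.51 (adjusted p = 0.528). In all, both ICAM-1 KO-labelled libraries lay above both WT libraries for 6 of the 8 members, and 28.3% of the genes tested showed this order.

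To compare levels between members, the normalized count was divided by the length of the merged exons in GENCODE M21. This is a level per kb and underrates a gene whose longest isoform is rare. By the WT means, Gimap3 was highest at 78 normalized counts per kb, followed by Gimap4 at 46.6, Gimap6 at 41.3, Gimap1 at 34, Gimap5 at 23, Gimap9 at 21, Gimap7 at 11.6 and Gimap8 at 11.5. Gimap4 and Gimap6 overlapped between the WT libraries, as did Gimap5 with Gimap9 and Gimap7 with Gimap8, while the other neighbours in this order did not. Per kb, Gimap3 exceeded 93.7% of the 10476 protein-coding genes tested that had a length, and Gimap8 exceeded 65%.

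In the ICAM-1 KO-labelled libraries, the level per kb of Gimap4 was 112 and 117, next to 122 and 124 for Gimap3. Gimap4 exceeded 96.3% of the protein-coding genes there, and 89.2% in WT. Gimap6 followed at 61.2 and 66.5 and Gimap1 at 38.8 and 40.4. Gimap9, Gimap5 and Gimap7 came next with means of 23, 22.6 and 21.3 per kb and overlapping libraries, and Gimap8 was again lowest at 15.2. The order of the means was thus the same for the upper 4 and for Gimap8. In WT 1 alone, Gimap4 (36.8 per kb) lay below Gimap6 (40.5) and Gimap1 (37.2), and Gimap7 (8.67) lay below Gimap8 (11.9).

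Summed over the 8 members, the normalized count was 708 and 761 in WT and 1081 and 1139 in the ICAM-1 KO-labelled libraries. The ratio of the means was 1.51, with no overlap (exact permutation test, two-sided, p = 0.333, the smallest that 2 against 2 libraries can give). As a share of all estimated counts, the Gimap genes took 0.0787% (95% Wilson interval 0.0777 to 0.0798%) and 0.0835% (0.0824 to 0.0845%) in WT. They took 0.126% (0.124 to 0.127%) and 0.13% (0.129 to 0.132%) in the ICAM-1 KO-labelled libraries. Such intervals leave out the spread between pools. They treat reads as independent, but the reads carry no molecular identifiers and are no independent molecules. The intervals can therefore be too narrow even for counting error.

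**Figure D2:**
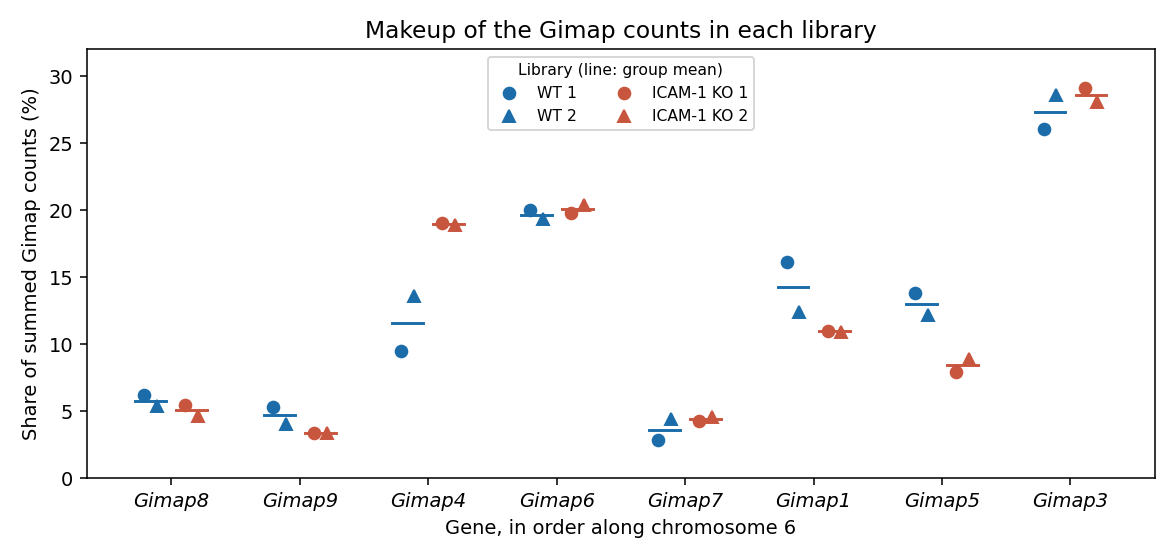
Share of the summed Gimap counts (%) taken by each gene in the 2 WT libraries (blue) and the 2 ICAM-1 KO-labelled libraries (red), with a line at each group mean. Gimap4 lies higher and Gimap5, Gimap1 and Gimap9 lie lower in the red libraries, while Gimap6 stays near 20% in all of them.

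The makeup of the summed count differed as well. Gimap4 gave 9.54% (95% Wilson interval 9.16 to 9.94%) and 13.6% (13.2 to 14.1%) of the Gimap counts in WT, and 19% (18.6 to 19.5%) and 18.9% (18.5 to 19.3%) in the ICAM-1 KO-labelled libraries. Gimap5 gave 13.8% and 12.2% in WT and 7.93% and 8.95% in the ICAM-1 KO-labelled libraries. The groups did not overlap for either share. Shares of a sum are tied to each other, and the lower share of Gimap5, whose own level was not called, goes with the larger sum. Gimap1 went from 16.2% and 12.4% to 11% and 10.9%, and Gimap9 from 5.34% and 4.07% to 3.37% and 3.42%, also without overlap, while neither gene was lower in its own level. Gimap6 stayed at 19.3% to 20.4% in all 4 libraries. For each Gimap5 count there were 0.69 and 1.12 counts of Gimap4 in WT, and 2.4 and 2.12 in the ICAM-1 KO-labelled libraries.

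**Figure D3:**
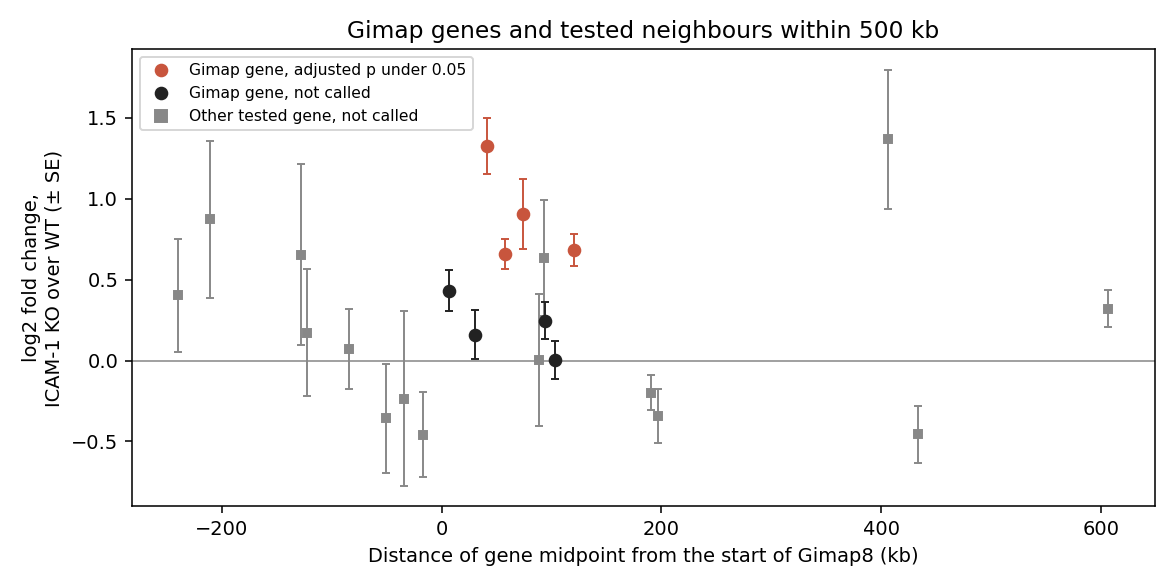
Log2 fold change (ICAM-1 KO-labelled libraries over WT, bars ± standard error) of each Gimap gene and each tested gene within 500 kb, against the distance of its midpoint from the start of Gimap8 in kb. Of the 4 Gimap genes called higher (red), 3 are neighbours and Gimap3 lies at the far end, the other Gimap genes were not called (black), and none of the 15 other genes (grey squares) was called.

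Of 26 other genes within 500 kb of the cluster, 15 were tested, and edgeR called 0 of them. Over all genes tested, 8.8% were called higher and 4.97% lower. The median log2 fold change of these 15 was 0.07, and 3 of them had an unadjusted p under 0.05. The share of all genes at that unadjusted threshold was not computed. DESeq2 called 1 of them, Gpnmb, higher, and so did edgeR without the library labelled ICAM-1 KO 1 (adjusted p = 0.0337). Without the library labelled ICAM-1 KO 2, Tmem176a was called lower (log2 fold change -0.58, edgeR adjusted p = 0.0251). Tmem176b and Tmem176a, membrane protein genes on the side of Gimap3, differed by -0.20 and -0.34 on the log2 scale (edgeR adjusted p = 0.259 and 0.206). These 2 genes, Gpnmb and the next gene were named after their values were seen. AI854703, the nearest tested gene on the side of Gimap8, had 9.9 and 9.78 normalized counts in WT and 7.15 and 6.95 in the ICAM-1 KO-labelled libraries (log2 fold change -0.46, adjusted p = 0.276).

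Of 17 tested genes linked to naive and quiescent lymphocytes, 7 were higher and none was lower in the ICAM-1 KO-labelled libraries (12 and 0 at an unadjusted p under 0.05 in the same edgeR test, 10 and 0 by DESeq2), with a median log2 fold change of 0.41. With no filter for low counts, 3 were higher. Among all 11711 genes tested, edgeR called 8.8% higher and 4.97% lower. The share of all genes at an unadjusted p under 0.05 was not computed, so unadjusted counts of any list have no background here. Btg2, an antiproliferative gene, had 93 and 111 normalized counts in WT and 308 and 312 in the ICAM-1 KO-labelled libraries (log2 fold change 1.63, edgeR adjusted p = 0.000131). By contrast Btg1, at 706 to 819 normalized counts over all libraries, Il7r, the interleukin 7 receptor, and Ccr7, a homing receptor for lymph nodes, did not pass the test. Il7r had 254 and 250 normalized counts in WT and 298 and 304 in the ICAM-1 KO-labelled libraries (log2 fold change 0.28, adjusted p = 0.0513), and it is also among the listed ILC2 markers. The list also held Klf2, S1pr1, Foxp1, Tcf7 and Tob1 among its higher genes.

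In the BCL2 family, through which several Gimap proteins have been tied to lymphocyte survival, 4 of 10 tested genes were higher and none was lower (5 and 0 at an unadjusted p under 0.05 in the edgeR test, 4 and 0 by DESeq2). Over all genes tested, edgeR called 8.8% higher and 4.97% lower. The higher genes of this family act on opposite sides of cell death. Bcl2, which prevents it, had 69.5 and 79.3 normalized counts in WT and 112 and 119 in the ICAM-1 KO-labelled libraries (log2 fold change 0.66, adjusted p = 0.00705). Mcl1 and Bcl2a1b, also protective, rose by 0.38 and 1.07 on the log2 scale, and Bcl2l11, which encodes the pro-apoptotic protein Bim, rose by 1.3. Bax, another pro-apoptotic gene, had 126 and 128 normalized counts in WT and 114 and 119 in the ICAM-1 KO-labelled libraries (adjusted p = 0.485). With no filter for low counts, or without WT 1, the family held 2 calls.

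The ATG8 family of autophagy proteins, to which Gabarapl2 belongs, gave no call among its 5 tested genes (edgeR and DESeq2), although 2 had an unadjusted p under 0.05 in the edgeR test. The median log2 fold change of this family was 0.00. The interferon-inducible GTPases, another group of immune GTPases, went both ways among 14 tested genes. Gbp7 and Gbp3 were higher, with log2 fold changes of 0.92 and 0.7, and Irgm1 and Gbp6 were lower, with -0.81 and -0.72 (edgeR adjusted p = 0.00352, 0.0109, 0.0108 and 0.0329). Their median log2 fold change was 0.13. The shares over all genes tested were 8.8% higher and 4.97% lower. With no filter for low counts, or without WT 1, each direction held 1 call. The number lower was 0 without WT 2 and 1 without the library labelled ICAM-1 KO 1.

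**Figure D4:**
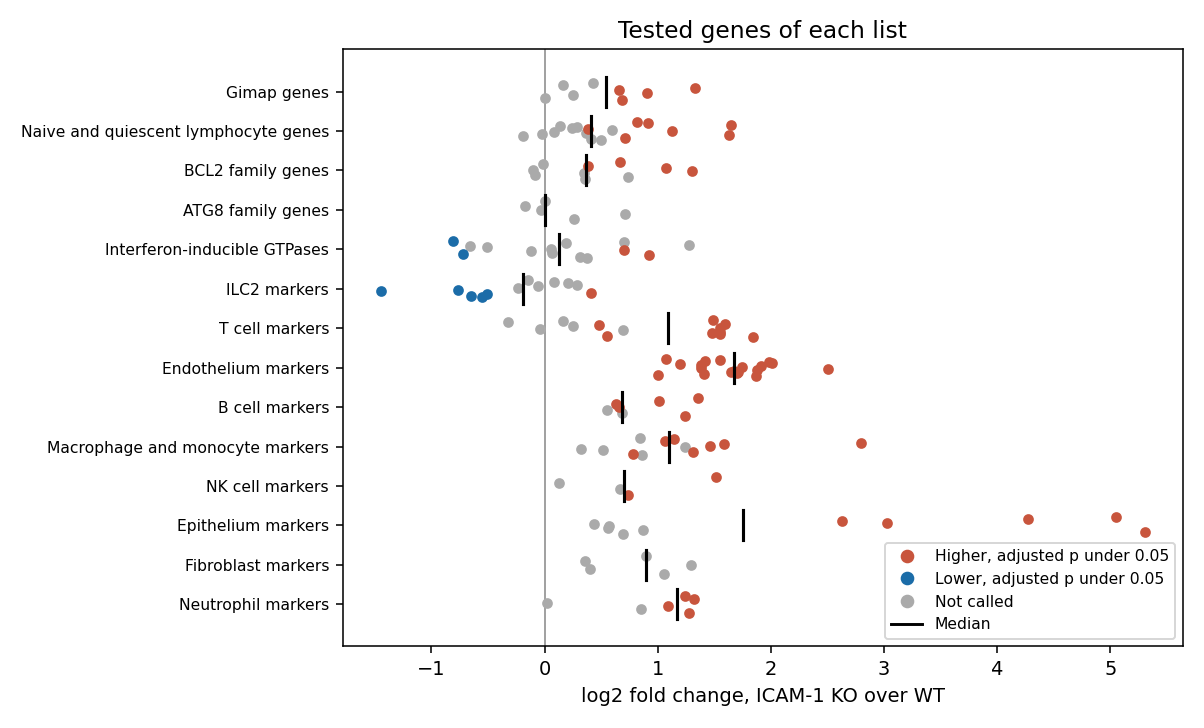
Log2 fold change (ICAM-1 KO-labelled libraries over WT) of every tested gene of each list, 1 point per gene, coloured by whether it was called higher (red), lower (blue) or not called (grey), with a black line at the median. The median of the Gimap genes, 0.54, lies below those of the T cell markers, 1.09, and the endothelium markers, 1.67, and above that of the ILC2 markers, -0.19.

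Markers of several other cell types moved in the same direction as the Gimap genes. Among all 11711 genes tested, 8.8% were called higher and 4.97% lower. Of the 14 T cell markers, whose summed levels are given with the Gimap calls, 9 were higher and none was lower (10 and 1 at an unadjusted p under 0.05 in the edgeR test, 9 and 0 by DESeq2, and 1 lower without the library labelled ICAM-1 KO 2). With no filter for low counts, 6 T cell markers were higher, and some fits that left out 1 library also called fewer. Foxp3, which defines regulatory T cells, rose by 1.84 on the log2 scale, and Trac, a T cell receptor constant gene, by 1.6. Not all members of the list went this way. Cd3g, a chain of the CD3 complex, had 114 and 127 normalized counts in WT and 81.1 and 107 in the ICAM-1 KO-labelled libraries (log2 fold change -0.33, edgeR adjusted p = 0.158), and the log2 fold changes of Cd3e and Cd8a were 0.17 and -0.04, neither of them called. Trbc2 had 245 and 239 normalized counts in WT and 269 and 295 in the ICAM-1 KO-labelled libraries and was not called (adjusted p = 0.0987). The sort gated on cells negative for CD3ε, CD4, CD5 and T cell receptor protein, at a stated purity above 95%. Which cells the T cell marker RNA came from was not tested.

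All 19 endothelial markers were higher, and 14 of them with no filter for low counts. Every fit that left out 1 library also called fewer than 19. Over all genes tested, edgeR called 8.8% higher. Plvap, Ptprb, Pecam1 and Calcrl were the most abundant, and rose by 1.70, 2.51, 1.07 and 1.00 on the log2 scale. Of the markers of B cells, 5 of 7 were higher (3 without WT 2, 0 with no filter for low counts), with summed levels of 172 and 158 against 333 and 266. Of those of macrophages and monocytes, 7 of 12 were higher (3 without WT 1, 4 without WT 2, 3 with no filter), with summed levels of 524 and 518 against 876 and 1090. NK cell markers summed to 40.2 and 53.5 in WT and to 74.5 and 73.3, and 2 of 4 were higher (0 without WT 1, 1 without any other library, 0 with no filter). No marker of any list was at 0 in all 4 libraries.

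Of the remaining lists, 5 of 10 epithelial markers (3 without WT 2, 2 with no filter) and 4 of 6 neutrophil markers (2 without WT 1, 2 with no filter) were higher, and none of 5 fibroblast markers was called (1 had an unadjusted p under 0.05 in the edgeR test, DESeq2 called 0, and edgeR called 2 without WT 2 and 1 without the library labelled ICAM-1 KO 1). Over all genes tested, 8.8% were called higher and 4.97% lower. The summed levels in WT and then in the ICAM-1 KO-labelled libraries were 436 and 200 against 561 and 1388 for epithelium. They were 77.1 and 82.2 against 187 and 142 for neutrophils, and 15.6 and 49.7 against 37.6 and 80.9 for fibroblasts, where the groups overlapped. ILC2 markers went the other way, with 5 of 12 lower (3 without WT 2), among them Arg1, Il5 and Id2. The 1 that was higher, Klrg1, was not called without WT 2 or without the library labelled ICAM-1 KO 2. Areg, which encodes amphiregulin, had 764 and 914 normalized counts in WT and 669 and 730 in the ICAM-1 KO-labelled libraries (adjusted p = 0.17). Il1rl1, which encodes ST2, had 626 and 728 in WT and 774 and 760 in the ICAM-1 KO-labelled libraries (edgeR adjusted p = 0.173). Gata3, Rora, Il7r and Thy1 were not called either, so the lower summed level did not hold for every ILC2 marker.

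The pattern of the Gimap genes as a whole over the 4 libraries, taken as the mean of their centred log2 normalized counts, was compared with that of 8911 other genes averaging 10 or more normalized counts. The nearest were Mkl2, Ppp1r21, Nktr and Ric1, together with a gene whose symbol the tables give as a date and which is not named. Their root mean square difference from the Gimap mean was 0.018 to 0.027 on the log2 scale over the 4 libraries. Among the members themselves it was 0.053 for Gimap6 and 0.08 for Gimap3, which lay nearest to the mean, and 0.436 for Gimap4, which lay farthest. The nearest genes were picked for the smallest differences among 8911, so low values follow from that choice. Values of the members were not picked this way and cannot be compared with them. With only 4 libraries, a likeness of this kind is a description of these values.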

How the data were processed

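Activated lung ILC2s were sorted, and cDNA was made from low-input RNA with a SMARTer kit. Per the methods, the authors used STAR, the mouse build mm10 and the annotation GENCODE M20, and the estimated counts they deposited were made in Partek, which divides reads between genes, for 22558 genes. They also deposited a normalized signal for 18324 genes, obtained by the upper quartile method, in which each value equals the count plus 1 times 1 factor per library. The paper and the labels name different STAR versions. Of these counts, 58.8% lie within 0.005 of a whole number.

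Counts were rounded and tested with edgeR 4.0.16 (glmQLFit with legacy set to FALSE, glmQLFTest, upper quartile factors, no covariate) in R 4.3.3. Genes were tested where the normalized counts averaged 1 or more and summed to 10 or more, 11711 in all, and called at an adjusted p under 0.05 (Benjamini-Hochberg over these genes). The GSA test of the authors was not run. Standard errors come from the log2 fold change and its F statistic, and 95% intervals from the t distribution with the degrees of freedom of that test. Means ± SD are over the authors' normalized counts. Summed levels of lists are counts times the factor of each library. Groups came from the sample titles, whose numbers mark no stated shared animal or batch.

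The members and lists were chosen with earlier results of these data known. Named genes are the members, Icam1, genes that overlap a member, called neighbours, up to 4 abundant genes of each list and the 5 genes of nearest pattern. Other genes named, among them Klf2, S1pr1, Foxp1, Tcf7, Tob1, Bcl2l11, Irgm1, Gbp6, Klrg1, Cd3g, Cd3e, Cd8a, Gpnmb, Tmem176a, Tmem176b and AI854703, were chosen after their values were seen, and 1 listed gene is not reported by name here. Gata3, Rora, Il1rl1, Thy1, Cd3d, Cd4, Cd5, Cd6, Cd28 and Lat were also named after their values were seen. Of 22558 genes, 21880 equalled GENCODE M21 in symbol and coordinates, once the end given in the tables was moved by 1 base, and this release gave exon lengths. Promoters are from RefSeq, with 2 windows for Gimap8 and 1 for each other member.

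The alternatives were TMM factors, DESeq2 1.42.0, no filter, filterByExpr, the older glmQLFit, limma 3.58.1 on log2 normalized counts, the replicate number as a block, leaving out each library, and other ways to count overlapping or similar genes.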

Additional observations from a re-analysis of the deposited data

How the results depend on the processing

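Of 103 refits of the 8 Gimap genes, 94 kept the direction and the side of the threshold. Gimap3, Gimap4 and Gimap6 were called in all 13 alternatives, and Gimap7 in 11, the exceptions being no filter on low counts and the fit without WT 1. Gimap8 was called by DESeq2 alone. For Gimap5, which was never called, the log2 fold change turned to -0.040 without a filter, -0.026 with filterByExpr, -0.028 with limma, -0.0039 with DESeq2 and -0.032 without WT 2, and lay between -0.14 and 0.13 when single libraries were left out. The number of members called higher was 3 to 4 with each library left out, and 1 where a 2-fold change was also asked for. A fit with 1 library in a group assumes that it varies like the other group. Such fits gave 479 to 948 genes higher and 158 to 388 lower over all genes, against 1030 and 582 with all libraries, with 479 and 208 without WT 1, 523 and 158 without WT 2 and 357 lower without ICAM-1 KO 1.

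With no filter on 22158 genes, calls fell to 334 higher and 201 lower, and with DESeq2 930 were lower. Among the neighbours, Gpnmb was called higher by DESeq2 (1 gene). Calls of neighbours ranged from 0 to 1 in each direction with a library left out, Gpnmb being higher without ICAM-1 KO 1 and Tmem176a lower without ICAM-1 KO 2. Without a filter, 3 naive lymphocyte genes and 2 BCL2 family genes were higher, and 1 interferon-inducible GTPase was higher and 1 lower. With libraries left out, BCL2 family calls were 2 to 4, and the interferon-inducible GTPases had 1 to 2 higher and 0 to 3 lower. These refits differed in the libraries, the genes tested or the method, and the cause of the changed calls was not tested. The summed Gimap ratio was 1.54 under TMM factors and 1.46 to 1.57 with each library left out.

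The replicate numbers gave no sign of a pairing, with a correlation of -0.058 across genes between the deviations of the libraries numbered 1. With the number as a replicate block, 1077 genes were higher and 638 lower, and the same number of members, 4, was higher. At these depths the lowest estimated count of a member in any library was 610 after rounding, for Gimap7 in WT 1.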
